A study of Mus musculus with 9 samples.

Results

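The genes described are 9 genes known from spinal motor neurons and cholinergic transmission, taken by symbol from the deposited tables: Chat, Slc5a7, Ache, Isl1, Mnx1, Prph, Calca, Calcb and Mmp9. All 9 were present among 40879 gene symbols, and all 9 passed the filter on low counts that left 18245 genes for testing. Bulk RNA from the spinal cord of male mice was sequenced in 3 groups of 3 libraries. The SNI+LDN193189 group carried the nerve injury and received LDN193189, a small-molecule inhibitor of BMP type I receptor kinases. The SNI group carried the injury alone, and the sham group is the operated control without it. SNI is read here as spared nerve injury, a model of neuropathic pain in which some branches of the sciatic nerve are cut and others spared. Strain, age, cord segment and side, time after injury, and the dose and vehicle of the compound do not appear in the labels. The labels name replicate biosamples but no separate animals, so the p-values describe the spread among these samples, which may be technical.

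Motor neurons of the ventral horn make acetylcholine with choline acetyltransferase, take choline back up through a high-affinity transporter, and release the transmitter onto muscle, where acetylcholinesterase breaks it down. They are specified by homeodomain factors of the LIM and MNX families, carry the intermediate filament peripherin in their long axons, and many of them also make calcitonin gene-related peptide (CGRP). Mmp9, a secreted metalloproteinase, marks fast-fatigable motor neurons in mice. Prph, Calca, Calcb and Isl1 are also used by sensory neurons of the dorsal root ganglion, Mmp9 is made by neutrophils and osteoclasts as well, and Ache is made by many neurons that are not cholinergic. In bulk RNA, fewer cells of a type and less RNA per cell cannot be told apart.

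Libraries held 33432776 to 37190467 counts. Levels are given as CPM, counts scaled to 1 common library size after TMM adjustment, which compares a gene between libraries. FPKM, which also divides by a gene length, was used to compare different genes. Library columns carry the letters L, N and S, read from the names as SNI+LDN193189, SNI and sham, and every direction below rests on that reading. Sham libraries stood apart from each other in genes of neighbouring tissue. Skeletal muscle markers summed to 7.67 to 23.8 CPM in SNI+LDN193189, 6.98 to 8.93 CPM in SNI and 14.0 to 852 CPM in sham, the highest being sham replicate 1. All SNI sums of muscle lay below all sham sums, and those of SNI+LDN193189 overlapped both. Schwann cell and nerve root markers summed to 555 to 1425 CPM in SNI+LDN193189, 186 to 652 CPM in SNI and 635 to 4740 CPM in sham, the highest being sham replicate 3. Acta1, skeletal muscle actin, reached 222 CPM in sham replicate 1, and Pmp2, a peripheral myelin protein, 57.5 CPM in sham replicate 3. Of these markers 12 of 12 and 10 of 10 were tested and 0 passed, with a median log2 fold change in muscle of 2.19 for SNI+LDN193189 against SNI, -4.12 for SNI+LDN193189 against sham and -6.63 for SNI against sham. In nerve root the medians were 1.09, -1.36 and -2.44 in the same 3 comparisons. Their joint edgeR adjusted p was smallest for Ckm (0.807) and Acta1 (0.8101) in muscle and for Fxyd3 (0.785) and Ngfr (0.832) in nerve root. At an unadjusted edgeR p under 0.05, SNI against sham held 9 of 12 muscle and 9 of 10 nerve root markers, beside 5.33% of tested genes. SNI+LDN193189 against sham held 3 and 2, beside 8.56%, and SNI+LDN193189 against SNI held 0 and 0, beside 3.88%.

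None of the 9 genes passed the threshold in any comparison, an adjusted p under 0.05 by the edgeR quasi-likelihood test with Benjamini-Hochberg adjustment over all genes tested. The share of all tested genes that passed was 0.00548% for SNI+LDN193189 against SNI, 0.0164% for SNI+LDN193189 against sham, 0.0% for SNI against sham and 0.00548% in the joint test of the 3 groups. At an unadjusted p under 0.05 the members numbered 1 (Chat) for SNI+LDN193189 against SNI, 2 (Chat and Ache) for SNI+LDN193189 against sham and 0 for SNI against sham, against backgrounds of 3.88%, 8.56% and 5.33% of tested genes. The joint test gave 1 member (Chat) at that level, against 5.94%. DESeq2 and the limma fits also called 0 members in each comparison. Groups did not overlap for 2 members that were higher (Chat and Ache) and 0 that were lower in SNI+LDN193189 against SNI, where 5.71% of tested genes were higher and 5.55% lower without overlap. They did not overlap for 1 member that was higher (Chat) and 0 that were lower in SNI+LDN193189 against sham, where the shares were 6.81% and 6.31%. In SNI against sham all 9 members overlapped, and the shares of tested genes were 4.45% higher and 4.43% lower. The median log2 fold change over the 9 genes was 0.06, -0.01 and -0.05 in those 3 comparisons, and over all tested genes it was -0.00, -0.01 and 0.00. The comparisons share libraries, so their values are not independent of each other.

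**Figure D1:**
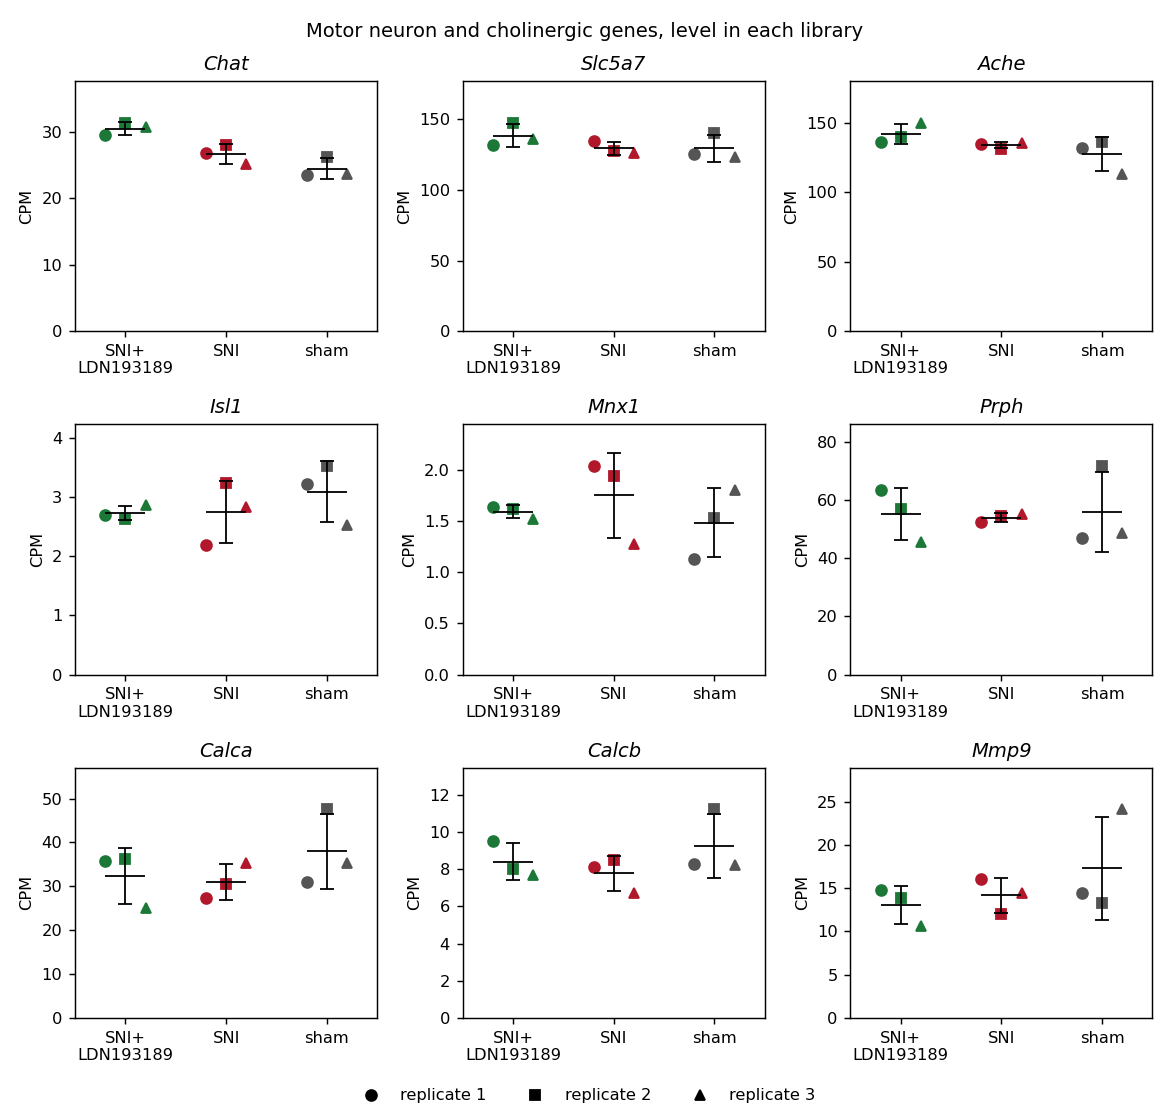
CPM of each of the 9 genes (vertical axes, from 0) in every library of the SNI+LDN193189, SNI and sham groups; symbols mark replicate numbers, horizontal bars the group mean and error bars the SD (n = 3). Chat is the gene whose SNI+LDN193189 libraries, at 29.5 to 31.4 CPM, all lie above those of both other groups, while sham replicate 2 is highest for Isl1, Prph, Calca and Calcb and sham replicate 3 for Mmp9.

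On the per-length scale, Ache (mean 28.4 FPKM over 9 libraries, range 24.5 to 31.6), Prph (27.2, 22.5 to 35.0) and Slc5a7 (24.1, 22.9 to 26.6) were the most abundant of the 9 genes, and their ranges overlapped. Calca followed at 14.6 FPKM (10.8 to 20.3) and Chat at 9.74 FPKM (8.51 to 11.1), with ranges that overlapped at their edges. Mmp9 at 3.93 FPKM (2.79 to 6.52) and Calcb at 2.46 FPKM (1.98 to 3.21) overlapped each other and lay below Chat. The transcription factors were lowest and overlapped, Isl1 at 1.13 FPKM (0.855 to 1.37) and Mnx1 at 1.11 FPKM (0.784 to 1.38). The order depends on the lengths built into the deposited FPKM, which can be recovered from the counts. For Calcb that length was 3441 bases, against 1264 exon bases in GENCODE M21, and for Chat it was 2794 against 4703.

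Chat encodes choline acetyltransferase, the enzyme that makes acetylcholine, and lies on the minus strand of chromosome 14 at 32408203 to 32465989 (GRCm38). Its level was 29.5, 31.4 and 30.7 CPM in the SNI+LDN193189 libraries, 26.8, 28.1 and 25.2 CPM in SNI and 23.5, 26.3 and 23.7 CPM in sham. All SNI+LDN193189 libraries lay above all SNI and all sham libraries, while SNI and sham overlapped.  Group means were 30.5 ± 0.972 CPM in SNI+LDN193189, 26.7 ± 1.47 CPM in SNI and 24.5 ± 1.57 CPM in sham (SD, n = 3 each). The edgeR log2 fold change was 0.32 (SE 0.0767, unadjusted p = 0.000813, adjusted p = 0.301) for SNI+LDN193189 against sham. It was 0.19 (SE 0.0765, unadjusted p = 0.0233, adjusted p = 1.00) for SNI+LDN193189 against SNI and 0.13 (SE 0.0768, unadjusted p = 0.123, adjusted p = 0.941) for SNI against sham. Across the alternatives the adjusted p for SNI+LDN193189 against sham ran from 0.0539 (DESeq2) to 0.731, so the difference did not pass over all genes in any of them. Fold changes in that comparison kept their sign throughout, at 0.27 to 0.37.

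Slc5a7, the high-affinity choline transporter that supplies Chat with choline (chromosome 17, 54273590 to 54299034, minus strand), did not follow with separated groups. It stood at 132, 147 and 136 CPM in SNI+LDN193189, 134, 127 and 126 CPM in SNI and 125, 140 and 123 CPM in sham, and all 3 groups overlapped. Its edgeR log2 fold change was 0.10 (SE 0.0612, adjusted p = 1.00) for SNI+LDN193189 against SNI, 0.10 (SE 0.0612, adjusted p = 0.684) against sham, and -0.00 (SE 0.0612, adjusted p = 0.999) for SNI against sham. Slc5a7 had the smallest spread of the 9 genes, a coefficient of variation of 6.03% over the 9 libraries, against 10.6% for Chat.

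Ache encodes acetylcholinesterase, which ends the signal by splitting acetylcholine (chromosome 5, 137287519 to 137294466, plus strand). It stood at 136, 140 and 150 CPM in SNI+LDN193189, 135, 132 and 136 CPM in SNI and 132, 137 and 114 CPM in sham. SNI+LDN193189 lay just above SNI without overlap, by 136.1 against 135.9 CPM at the nearest libraries, and overlapped sham. The edgeR log2 fold change was 0.08 (SE 0.0650, adjusted p = 1.00) for SNI+LDN193189 against SNI, 0.16 (SE 0.0651, unadjusted p = 0.0286, adjusted p = 0.557) against sham, and 0.07 (SE 0.0651, adjusted p = 0.957) for SNI against sham. Sham replicate 3, the lowest library for Ache, carried the highest nerve root sum. Without it the edgeR log2 fold change was 0.08 (unadjusted p = 0.178, adjusted p = 0.798) for SNI+LDN193189 against sham and -0.0045 (adjusted p = 0.997) for SNI against sham. Over the 9 libraries Ache and the nerve root sum had a Pearson r of -0.589 and a Spearman rho of -0.017. Whether nerve root RNA had a part in the Ache level was not tested. Without SNI+LDN193189 replicate 3, the highest library, it was 0.04 (adjusted p = 1.00) for SNI+LDN193189 against SNI and 0.11 (unadjusted p = 0.136, adjusted p = 0.864) for SNI+LDN193189 against sham. Ache shares 98 exon bases with Gm42456, a long noncoding RNA on the opposite strand that had 1200 counts over the 9 libraries.

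Within a library, Chat can be set against the other cholinergic genes without any scaling between libraries. The ratio of Slc5a7 counts to Chat counts was 4.47, 4.69 and 4.42 in SNI+LDN193189, 5.00, 4.53 and 5.01 in SNI and 5.32, 5.33 and 5.19 in sham. All SNI+LDN193189 and all SNI ratios lay below all sham ratios, while SNI+LDN193189 and SNI overlapped. How many other genes would separate in this way as a ratio to Chat was not computed. The ratio of Ache to Chat was 4.62, 4.45 and 4.89 in SNI+LDN193189, 5.03, 4.68 and 5.39 in SNI and 5.63, 5.19 and 4.79 in sham, and the groups overlapped. These ratios were formed after the levels had been seen and were given no test.

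**Figure D2:**
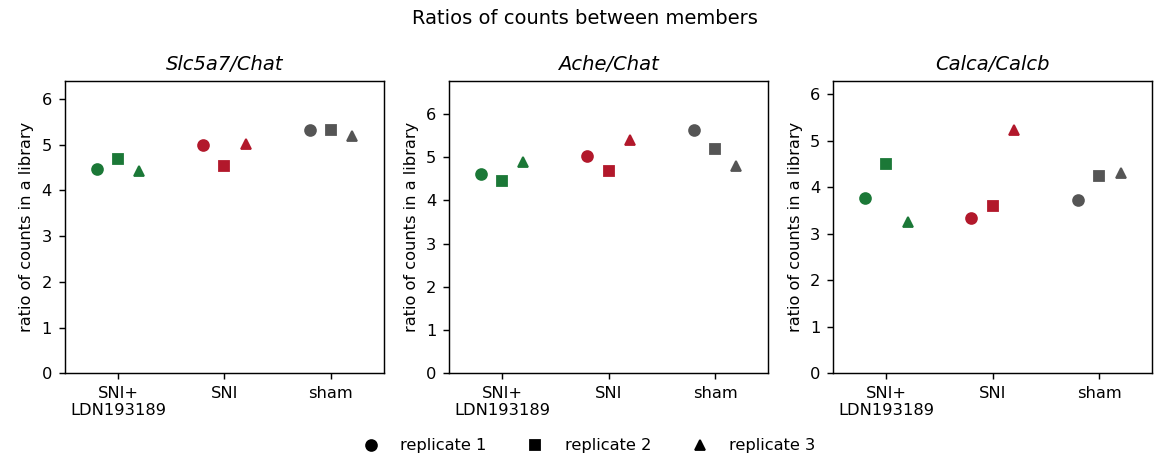
Ratio of raw counts (vertical axes, from 0) of Slc5a7 to Chat, Ache to Chat and Calca to Calcb in each library of the SNI+LDN193189, SNI and sham groups; symbols mark replicate numbers. Slc5a7 to Chat runs from 4.42 to 4.69 in SNI+LDN193189, from 4.53 to 5.01 in SNI and from 5.19 to 5.33 in sham, and the other ratios overlap between groups.

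Genes that store, recycle and break down acetylcholine did not pass either. Of 7 such genes 6 were tested and 0 passed in either direction in any comparison. Their median log2 fold change was 0.01 for SNI+LDN193189 against SNI, 0.07 for SNI+LDN193189 against sham and 0.05 for SNI against sham, beside -0.00, -0.01 and 0.00 over all tested genes. The seventh, Slc18a3, encodes the vesicular acetylcholine transporter that loads the transmitter into vesicles, and it was listed at 0 in all 9 libraries. Slc18a3 lies inside the Chat gene on the same strand (chromosome 14, 32462438 to 32464850). The annotated exons of Slc18a3 and Chat share 0 bases, and why the count was 0 was not tested. Of the 40879 gene symbols 14594 were at 0 in every library. Here and below, a gene listed at 0 is not reported as absence of its transcript. Bche, butyrylcholinesterase, had the smallest joint p of this list. It stood at 18.9, 18.0 and 20.6 CPM in SNI+LDN193189, 19.5, 21.2 and 18.4 CPM in SNI and 16.8, 17.5 and 17.9 CPM in sham (joint edgeR adjusted p = 0.856). Colq, the collagen tail that anchors acetylcholinesterase at the neuromuscular junction, was next, at 3.45, 4.72 and 3.50 CPM in SNI+LDN193189, 3.28, 3.47 and 3.32 CPM in SNI and 3.33, 3.34 and 2.91 CPM in sham (joint edgeR adjusted p = 0.900).

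Receptors for acetylcholine were measured on both the nicotinic and the muscarinic side. Of 16 nicotinic subunits 11 were tested, 0 passed, and 2 (Chrna10 and Chrnd) were listed at 0 in all libraries. The tested subunits had a median log2 fold change of -0.11 for SNI+LDN193189 against SNI, -0.03 for SNI+LDN193189 against sham and -0.02 for SNI against sham. Chrna4 and Chrnb2, which pair in the main neuronal nicotinic receptor, varied little. Chrna4 stood at 45.3 to 51.9 CPM and Chrnb2 at 46.7 to 56.2 CPM over all 9 libraries, with log2 fold changes from -0.02 to 0.03 in the 3 comparisons. Chrna1, the muscle subunit, was at 0.0862 to 0.517 CPM in all libraries. Chrna6, a neuronal subunit, had the smallest joint p, at 0.345, 0.956 and 0.401 CPM in SNI+LDN193189, 0.608, 1.13 and 0.720 CPM in SNI and 1.45, 1.67 and 0.753 CPM in sham (joint edgeR adjusted p = 0.833). Chrna2, next in that order, had a joint edgeR adjusted p of 0.887 at 2.63 to 4.66 CPM.

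All 5 muscarinic receptor genes were tested and 0 passed, with medians of -0.09, -0.02 and -0.03 in the same 3 comparisons. Chrm2, which couples to inhibitory G proteins, had the highest level per length of the 5, a mean of 18.6 FPKM over 9 libraries against 3.28 FPKM for Chrm3, and stood at 104 to 125 CPM with overlapping groups. Chrm1, which couples to Gq proteins, stood at 1.26, 1.14 and 1.66 CPM in SNI+LDN193189, 0.790, 0.646 and 0.831 CPM in SNI and 1.02, 0.704 and 1.24 CPM in sham. Its SNI+LDN193189 libraries lay above those of SNI, as those of 5.71% of tested genes did, and overlapped sham. The edgeR log2 fold change for SNI+LDN193189 against SNI was 0.84 (SE 0.328, unadjusted p = 0.0215, adjusted p = 1.00). Chrm3 had a joint edgeR adjusted p of 0.938 at 13.8 to 16.5 CPM.

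Isl1 and Mnx1 encode the homeodomain factors that specify motor neurons, and both had few counts. Isl1, on chromosome 13 at 116298281 to 116309689, had 94, 88 and 100 counts in SNI+LDN193189, 72, 120 and 102 counts in SNI and 120, 120 and 94 counts in sham. Mnx1, on chromosome 5 at 29473034 to 29478470, had 57, 54 and 53 counts in SNI+LDN193189, 67, 72 and 46 counts in SNI and 42, 52 and 67 counts in sham. The groups overlapped for both genes. The edgeR log2 fold change of Isl1 was -0.01 (SE 0.211, adjusted p = 1.00) for SNI+LDN193189 against SNI, -0.18 (SE 0.2097, adjusted p = 0.836) against sham, and -0.17 (SE 0.209, adjusted p = 0.978) for SNI against sham. That of Mnx1 was -0.14 (SE 0.274, adjusted p = 1.00), 0.10 (SE 0.276, adjusted p = 0.938) and 0.24 (SE 0.274, adjusted p = 0.975) in the same 3 comparisons. All 9 counts of Isl1 were even numbers, as were all 9 of Prph, and the labels give no reason for it. Over whole libraries 70.7 to 71.8% of the counts above 0 were even.

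Of 12 other transcription factors of motor neurons and their progenitors 11 were tested and 0 passed. Their median log2 fold change was -0.07 for SNI+LDN193189 against SNI, -0.11 for SNI+LDN193189 against sham and 0.04 for SNI against sham. Lhx3, the LIM partner of Isl1 in the motor neuron complex, stood at 2.30, 1.91 and 1.83 CPM in SNI+LDN193189, 2.43, 2.05 and 2.88 CPM in SNI and 1.37, 1.88 and 1.35 CPM in sham. Its SNI libraries lay above those of sham, as those of 4.45% of tested genes did (edgeR log2 fold change 0.68, SE 0.243, unadjusted p = 0.0133, adjusted p = 0.927). Nkx6-2, a factor of ventral progenitors that oligodendrocytes also express, stood at 18.5, 18.1 and 20.8 CPM in SNI+LDN193189, 18.9, 18.8 and 17.7 CPM in SNI and 14.2, 18.2 and 14.6 CPM in sham (joint edgeR adjusted p = 0.822). Isl2, the relative of Isl1, was at 1.89 to 5.34 CPM with overlapping groups, and its highest library was sham replicate 2. Esrrg, a nuclear receptor of gamma motor neurons, was at 97.5 to 121 CPM, also with overlapping groups.

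Markers of motor neuron subtypes numbered 10, all tested, of which 0 passed, with a median log2 fold change of 0.03 for SNI+LDN193189 against SNI, 0.08 for SNI+LDN193189 against sham and 0.08 for SNI against sham. Chodl, a marker of fast motor neurons, stood at 65.3, 56.5 and 39.0 CPM in SNI+LDN193189, 51.4, 54.1 and 48.4 CPM in SNI and 44.4, 57.6 and 45.0 CPM in sham, with overlapping groups. Stk32a, a kinase gene, had the smallest joint p of this list, at 47.8, 48.2 and 49.4 CPM in SNI+LDN193189, 42.5, 42.1 and 38.2 CPM in SNI and 41.8, 44.8 and 37.1 CPM in sham. All its SNI+LDN193189 libraries lay above the rest (edgeR log2 fold change 0.24, SE 0.0738, adjusted p = 1.00 against SNI). Of all tested genes 5.71% lay above SNI and 6.81% above sham in this way. Wnt7a, a secreted Wnt ligand, stood at 10.5, 7.08 and 8.00 CPM in SNI+LDN193189, 14.0, 16.0 and 10.2 CPM in SNI and 13.3, 12.0 and 9.96 CPM in sham, with overlapping groups (joint edgeR adjusted p = 0.752). Markers of the other cholinergic neurons of the cord, the preganglionic and V0c cells, were 4 genes, all tested, of which 0 passed, with medians of -0.01, -0.03 and -0.14 in the same 3 comparisons. Fbn2, among them, stood at 6.15, 5.62 and 6.59 CPM in SNI+LDN193189, 6.44, 11.0 and 7.14 CPM in SNI and 12.3, 7.86 and 9.10 CPM in sham (joint edgeR adjusted p = 0.793). Its SNI+LDN193189 libraries lay below all sham libraries, as those of 6.31% of tested genes did.

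**Figure D3:**
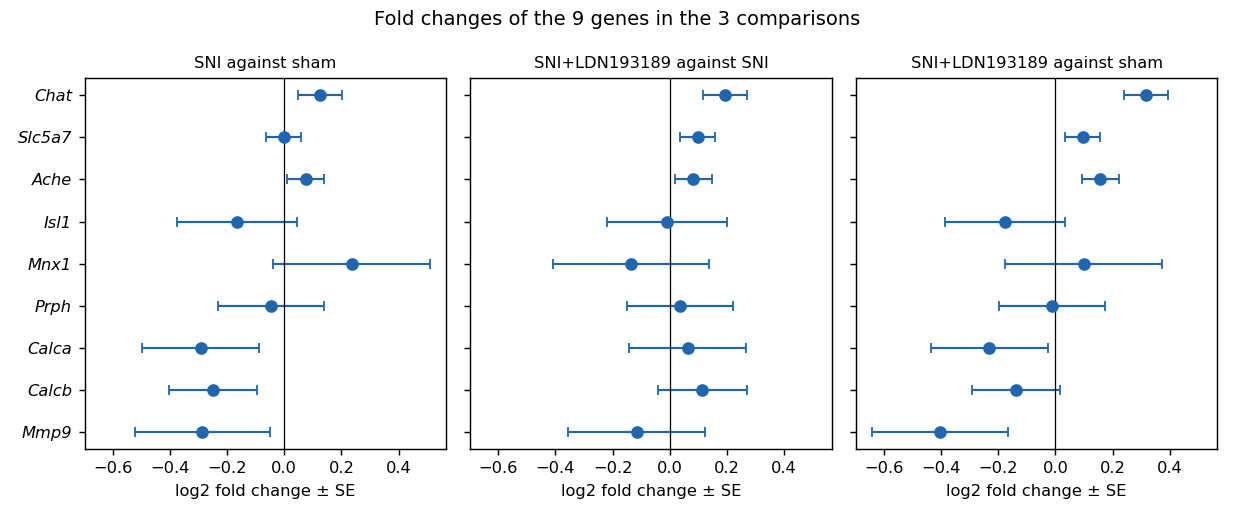
Log2 fold changes (horizontal axes, edgeR) of the 9 genes in the comparisons of SNI with sham, SNI+LDN193189 with SNI and SNI+LDN193189 with sham; points are estimates and bars are 1 SE either side. Chat lies at 0.32 in SNI+LDN193189 against sham with an SE of 0.0767, and the SEs of Isl1, Mnx1, Calca and Mmp9 exceed 0.2 in all 3 comparisons.

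Prph encodes peripherin, an intermediate filament of motor and sensory axons (chromosome 15, 99055174 to 99058978, plus strand). It stood at 63.3, 56.9 and 45.6 CPM in SNI+LDN193189, 52.3, 54.4 and 55.2 CPM in SNI and 47.0, 71.7 and 48.6 CPM in sham. Group means were 55.3 ± 8.98 CPM in SNI+LDN193189, 53.9 ± 1.51 CPM in SNI and 55.8 ± 13.8 CPM in sham (SD, n = 3 each). The means differed by less than the SD of SNI+LDN193189 and that of sham, both wider than the SD of SNI. The edgeR log2 fold change was 0.03 (SE 0.185, adjusted p = 1.00) for SNI+LDN193189 against SNI, -0.01 (SE 0.185, adjusted p = 0.990) against sham, and -0.05 (SE 0.185, adjusted p = 0.997) for SNI against sham. Sham replicate 2 held the highest level. Without it the edgeR log2 fold change was 0.21 (adjusted p = 0.440) for SNI+LDN193189 against sham and 0.17 (adjusted p = 0.668) for SNI against sham.

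Neurofilaments and other genes of large axons, 6 in all, were tested and 0 passed. Their median log2 fold change was -0.03 for SNI+LDN193189 against SNI, 0.07 for SNI+LDN193189 against sham and 0.13 for SNI against sham. Nefh, the heavy neurofilament of large axons, stood at 60.7, 56.5 and 53.4 CPM in SNI+LDN193189, 63.8, 65.2 and 56.1 CPM in SNI and 55.7, 59.5 and 52.9 CPM in sham. Uchl1, a ubiquitin hydrolase abundant in neurons, was at 422, 424 and 439 CPM in SNI+LDN193189, 394, 417 and 410 CPM in SNI and 364, 409 and 337 CPM in sham. Its SNI+LDN193189 libraries lay above all others (edgeR log2 fold change 0.21, SE 0.0624, adjusted p = 0.425 against sham). Of all tested genes 5.71% lay above SNI and 6.81% above sham without overlap. Ina, alpha-internexin, was lowest in sham replicate 3, at 306 CPM, and reached 387 CPM in SNI replicate 1 (joint edgeR adjusted p = 0.833). General neuronal markers, 10 tested and 0 passed, had medians of -0.03, 0.04 and 0.07 in those 3 comparisons. They included Tubb3, a neuronal tubulin, at 440, 454 and 418 CPM in SNI+LDN193189, 421, 416 and 439 CPM in SNI and 342, 421 and 350 CPM in sham (joint edgeR adjusted p = 0.747). Rbfox3, the gene of the neuronal antigen NeuN, had a joint edgeR adjusted p of 0.833 at 122 to 145 CPM.

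Calca and Calcb are neighbouring genes on chromosome 7 that each encode a form of CGRP. Calca lies on the minus strand at 114631478 to 114636357 and Calcb on the plus strand at 114718643 to 114723365. Calca also encodes calcitonin through a different choice of exons, and a count per gene cannot separate its products. The stretch that encodes the mature CGRP peptide is printed to let the similarity of the pair be read directly. It is 111 bases in exon 4 of 5 of the transcripts Calca-201 and Calcb-201, an exon number counted within the transcript and not the gene. It spans chr7:114632470-114632580 in Calca and chr7:114721994-114722104 in Calcb (GRCm38, GENCODE M21 transcripts, each written 5′ to 3′ on its own strand). Capitals mark the 5 bases at which they differ, which leaves 95.5% identity.
Calca: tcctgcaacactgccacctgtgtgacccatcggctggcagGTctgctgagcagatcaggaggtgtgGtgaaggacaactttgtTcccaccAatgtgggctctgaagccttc
Calcb: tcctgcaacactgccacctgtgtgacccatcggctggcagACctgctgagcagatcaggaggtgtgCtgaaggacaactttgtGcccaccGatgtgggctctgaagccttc
Exact words shared over the whole transcripts were few. Any differing base breaks such a word, so the count does not measure how similar the rest of the transcripts is. Of the 50-base words of Calca 0.715% (12 of 1678) also occurred in Calcb, and they made up 0.952% (12 of 1260) of those of Calcb. Of 31-base words 33 were shared, 1.97% of those of Calca and 2.62% of those of Calcb. Reads inside the shared stretch could be assigned to either gene, depending on the counting method, which the labels leave unnamed.

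Calca stood at 35.9, 36.1 and 25.0 CPM in SNI+LDN193189, 27.2, 30.4 and 35.2 CPM in SNI and 30.9, 47.5 and 35.4 CPM in sham. Calcb stood at 9.54, 8.04 and 7.68 CPM in SNI+LDN193189, 8.14, 8.48 and 6.73 CPM in SNI and 8.31, 11.2 and 8.23 CPM in sham. All groups overlapped for both genes, and sham replicate 2 was the highest library for each. For Calca the edgeR log2 fold change was 0.06 (SE 0.206, adjusted p = 1.00) for SNI+LDN193189 against SNI, -0.23 (SE 0.205, adjusted p = 0.780) against sham, and -0.29 (SE 0.205, adjusted p = 0.944) for SNI against sham. For Calcb it was 0.11 (SE 0.155, adjusted p = 1.00), -0.14 (SE 0.154, adjusted p = 0.827) and -0.25 (SE 0.154, adjusted p = 0.941) in the same 3 comparisons. Without sham replicate 2 the edgeR log2 fold change against sham was -0.04 for Calca and 0.03 for Calcb in SNI+LDN193189 (adjusted p = 0.955 and 0.964), and -0.10 and -0.09 in SNI (adjusted p = 0.910 and 0.906). The ratio of Calca to Calcb counts ran from 3.25 to 4.49 in SNI+LDN193189, from 3.34 to 5.24 in SNI and from 3.72 to 4.30 in sham.

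The library that held the most Prph, Calca, Calcb and Isl1, sham replicate 2, also held the most RNA of sensory ganglion markers. The 12 markers of such neurons summed to 23.7, 21.3 and 19.1 CPM in SNI+LDN193189, 21.7, 29.3 and 21.1 CPM in SNI and 28.2, 82.6 and 22.2 CPM in sham. The correlations below include sham replicate 2, where the sum was 82.6 CPM. In the injured groups most of the sum came from Pou4f1, P2rx3 and Th. Their means were 11.0, 4.97 and 3.07 CPM in SNI+LDN193189 and 12.2, 4.78 and 3.25 CPM in SNI. Scn10a, a nociceptor sodium channel, was at 0.0598 to 0.115 CPM in SNI+LDN193189 and 0.0554 to 1.51 CPM in SNI. In sham it stood at 0.965, 11.8 and 0.377 CPM. Pirt, another of the markers, was listed at 0 in all libraries. Of the 12 markers 10 were tested and 0 passed, with a median log2 fold change of -2.01 for SNI+LDN193189 against sham, -0.42 for SNI+LDN193189 against SNI and -1.72 for SNI against sham. Tmem233 had the smallest joint p of this list (joint edgeR adjusted p = 0.822). Over the 9 libraries the ganglion sum correlated with Isl1 at r = 0.698, with Prph at 0.696 and with Calca at 0.709, and by rank at 0.533, 0.383 and 0.383 (Spearman rho). Without sham replicate 2 the edgeR log2 fold change of Isl1 was -0.07 (adjusted p = 0.928) for SNI+LDN193189 against sham and -0.06 (adjusted p = 0.961) for SNI against sham. Whether ganglion RNA had a part in the levels of these 4 genes was not tested.

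**Figure D4:**
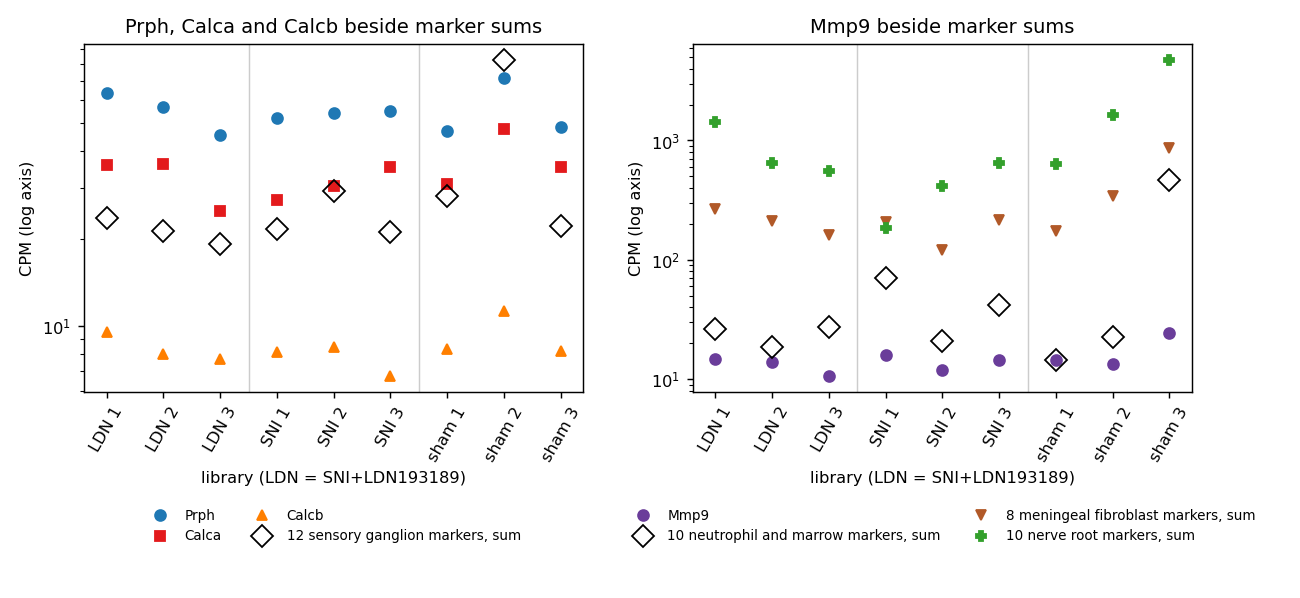
CPM on a log axis in each library (LDN stands for SNI+LDN193189) of Prph, Calca and Calcb beside the summed sensory ganglion markers, left, and of Mmp9 beside the summed markers of neutrophils and marrow, meningeal fibroblasts and nerve root, right. The ganglion sum is highest in sham replicate 2, at 82.6 CPM, where Prph, Calca and Calcb are highest as well, and the neutrophil and marrow sum is highest in sham replicate 3, at 463 CPM, where Mmp9 reaches 24.1 CPM.

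CGRP acts through the receptor Calcrl, which needs the partner protein Ramp1. Of 7 genes of the receptor and related peptides 6 were tested and 0 passed, and Adm was listed at 0 in all libraries. The median log2 fold change was 0.00 for SNI+LDN193189 against SNI, 0.02 for SNI+LDN193189 against sham and -0.05 for SNI against sham. Calcrl stood at 24.0, 27.0 and 27.2 CPM in SNI+LDN193189, 23.0, 21.7 and 24.1 CPM in SNI and 25.3, 29.2 and 26.3 CPM in sham. All SNI libraries of Calcrl lay below all sham libraries, which 4.43% of tested genes did (edgeR log2 fold change -0.23, SE 0.0837, unadjusted p = 0.0139, adjusted p = 0.927). Its SNI+LDN193189 libraries overlapped those of both other groups. Ramp1 stood at 40.0 to 46.5 CPM and Ramp2, which turns Calcrl into an adrenomedullin receptor, at 8.98 to 14.0 CPM, with overlapping groups in each case.

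Mmp9, on chromosome 2 at 164940780 to 164955850, stood at 14.8, 13.9 and 10.6 CPM in SNI+LDN193189, 16.0, 12.0 and 14.5 CPM in SNI and 14.5, 13.3 and 24.1 CPM in sham. Its spread was the widest of the 9 genes, a coefficient of variation of 25.8%, and sham replicate 3 lay above all others. The edgeR log2 fold change was -0.12 (SE 0.238, adjusted p = 1.00) for SNI+LDN193189 against SNI, -0.40 (SE 0.237, adjusted p = 0.668) against sham, and -0.29 (SE 0.237, adjusted p = 0.955) for SNI against sham. Without sham replicate 3 it was -0.09 (adjusted p = 0.929) for SNI+LDN193189 against sham and 0.03 (adjusted p = 0.997) for SNI against sham.

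Markers of neutrophils and marrow, 10 in number, summed to 26.5, 18.6 and 27.4 CPM in SNI+LDN193189, 70.1, 20.8 and 41.6 CPM in SNI and 14.5, 22.6 and 463 CPM in sham. S100a9, a neutrophil calcium-binding protein, was at 156 CPM in sham replicate 3, against 4.45 to 25.4 CPM in the others. The same library was highest for meningeal fibroblast markers, at 869 CPM against 121 to 343 CPM elsewhere, and for osteoclast markers, at 29.95 CPM against 10.2 to 15.9 CPM. Within the osteoclast list Acp5 and Ctsk reached 10.9 and 15.0 CPM in sham, the highest over all libraries. The other genes of that list were not highest in sham alone. Dcstamp and Ocstamp were at most 0.1615 CPM in sham. Oscar and Calcr peaked in SNI, at 3.85 and 1.38 CPM, against 3.35 and 1.18 CPM in sham. Of the neutrophil and marrow markers 9 were tested and 0 passed, with Ngp and Retnlg leading at a joint edgeR adjusted p of 0.854 each. Of the fibroblast markers 7 of 8 were tested and 0 passed, with Lum (joint edgeR adjusted p = 0.807) and Dcn (0.833) leading, and Ogn was listed at 0. Of the osteoclast markers 4 of 6 were tested and 0 passed, with Ctsk (joint edgeR adjusted p = 0.858) and Acp5 (0.8696) leading. For SNI+LDN193189 against sham the median log2 fold changes of these 3 lists were -2.81, -1.07 and -0.43, and for SNI against sham they were -2.06, -1.37 and -0.19. The part of these cells in the Mmp9 level was not tested.

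Over the 9 libraries the members fell into loose pairings, given here as descriptions over libraries that share depth, dissection and group. Chat varied with Slc5a7 (Pearson r = 0.731, n = 9 libraries) and with Ache (r = 0.694). With group means removed the values were 0.743 for Slc5a7 and 0.337 for Ache. Prph varied with Calca (r = 0.812) and Calcb (r = 0.701), and Calcb with the ganglion marker sum (r = 0.82). By rank these were 0.8, 0.45 and 0.933 (Spearman rho), and all 3 include sham replicate 2, the library highest for Prph, Calca, Calcb and the ganglion sum. Mmp9 varied with S100a9 (r = 0.844) and inversely with Ache (r = -0.888). Both of these Mmp9 values include sham replicate 3, the library highest for Mmp9 and S100a9 and lowest for Ache. Isl1 had inverse values with Mnx1 (r = -0.487) and with Mmp9 (r = -0.488). With group means removed these were -0.417 and -0.849. Other pairs of members are not given here.

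Promoter windows are shown for Prph and Calca, which varied together, and for Slc5a7, which varied with Chat. Each is the 250 bases before the RefSeq start in GRCm38.p6, on the strand of the gene, at chr15:99054924-99055173 for Prph (plus), chr7:114636358-114636607 for Calca (minus) and chr17:54299035-54299284 for Slc5a7 (minus). Capitals mark matches, on either strand, to TATAAA (the TATA box), CCAAT (the CCAAT box, ATTGG on the other strand), TGACG (a cAMP response half-site) and TAATTG (a homeodomain core).
Prph: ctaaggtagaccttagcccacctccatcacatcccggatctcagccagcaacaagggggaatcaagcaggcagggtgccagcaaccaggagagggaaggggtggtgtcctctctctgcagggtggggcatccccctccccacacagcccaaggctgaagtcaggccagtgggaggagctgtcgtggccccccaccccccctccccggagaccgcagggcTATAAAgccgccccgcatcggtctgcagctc
Calca: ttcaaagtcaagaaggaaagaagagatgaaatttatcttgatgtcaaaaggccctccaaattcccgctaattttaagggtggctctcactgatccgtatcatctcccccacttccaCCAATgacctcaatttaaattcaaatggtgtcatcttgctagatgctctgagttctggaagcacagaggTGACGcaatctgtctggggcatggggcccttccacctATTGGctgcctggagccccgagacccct
Slc5a7: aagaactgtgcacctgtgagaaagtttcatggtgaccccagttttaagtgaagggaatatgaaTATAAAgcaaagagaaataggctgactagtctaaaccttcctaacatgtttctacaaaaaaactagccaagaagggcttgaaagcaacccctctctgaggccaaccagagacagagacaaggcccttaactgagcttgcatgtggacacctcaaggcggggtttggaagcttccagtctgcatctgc
Prph and Slc5a7 each held 1 TATAAA, a motif in 13.0% of 27025 windows of this length. In Prph it lay close to the start of the gene, and in Slc5a7 nearer the far end of the window. Calca held 2 CCAAT matches and 1 TGACG, motifs found in 34.5% and 17.9% of windows. None of these 3 windows held TAATTG, which 7.34% of all windows did. Prph and Calca shared no motif of the 4 searched. The motifs were chosen after the windows had been seen, and a match is a description of the letters. Windows were found for 7 of the 9 genes, and Calcb and Mmp9 had no entry in the table.

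Genes whose levels followed a member most closely were ranked by Pearson r of log2(CPM + 0.5) over the 9 libraries, among 15186 genes. For Chat they were Gm13375 (r = 0.986), Rab33b (0.962), Efnb3 (0.958), Cst3 (0.945) and Nqo1 (0.941). For Prph they were Dnajc28 (0.946), Ppm1g (0.933), Best1 (0.922), Abt1 (0.920) and Mapre3 (0.912). For Calca they were Galnt17 (0.934), Stat3 (0.923), Stoml3 (0.915), Slc35f1 (0.907) and Serpina3g (0.903). For Mmp9 they were Adgrl4 (0.981), Clec4a2 (0.974), Rhbdf2 (0.957), P2rx7 (0.950) and Slit2 (0.944). None of these 20 genes was a member or on a list described here. With n = 9 and 15186 genes ranked, high values of r are found for any pattern.

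Genes of the response to axotomy were set beside the members, since motor axons run in the sciatic nerve. Of 10 such genes 8 were tested and 0 passed, with Flrt3 and Csf1 listed at 0 in all libraries. Their median log2 fold change was -0.19 for SNI+LDN193189 against SNI, 0.17 for SNI+LDN193189 against sham and 0.27 for SNI against sham. Gal, which encodes galanin, stood at 5.63, 5.62 and 4.01 CPM in SNI+LDN193189, 4.56, 6.03 and 7.92 CPM in SNI and 3.06, 3.81 and 3.15 CPM in sham (joint edgeR adjusted p = 0.593). The edgeR log2 fold change of Gal for SNI against sham was 0.89 (SE 0.210, unadjusted p = 0.0007, adjusted p = 0.656). Sprr1a stood at 6.38, 17.5 and 0.688 CPM in SNI+LDN193189, 6.63, 15.1 and 23.0 CPM in SNI and 0.161, 0.235 and 0.215 CPM in sham (joint edgeR adjusted p = 0.777). The edgeR log2 fold change of Sprr1a for SNI against sham was 6.175 (SE 1.41, unadjusted p = 0.00436, adjusted p = 0.900). Atf3, a transcription factor induced by nerve injury, stood at 5.63, 9.80 and 1.15 CPM in SNI+LDN193189, 5.83, 8.61 and 12.2 CPM in SNI and 1.34, 1.17 and 3.07 CPM in sham. Its edgeR log2 fold change for SNI against sham was 2.25 (SE 0.802, unadjusted p = 0.0293, adjusted p = 0.927). All SNI libraries of Gal, Sprr1a and Atf3 lay above all sham libraries, as those of 4.45% of tested genes did. The other tested genes of the list overlapped there. For Gal and Sprr1a the SNI+LDN193189 libraries also lay above sham, as 6.81% of tested genes did, and for Adcyap1 below it (6.31%). SNI+LDN193189 replicate 3 was the lowest injured library for both Sprr1a and Atf3, and it was also the lowest of all 9 libraries for Prph, Calca, Mmp9 and Chodl. It was not the lowest for Chat, Slc5a7, Isl1, Mnx1 or Calcb, and for Ache it was the highest, at 150 CPM.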

How the data were processed

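Counts and FPKM of bulk spinal cord were deposited as whole-series tables with 1 column per library. The deposited counts are whole numbers per gene symbol. The authors derived the FPKM values from them, since each equalled the count divided by library total and 1 fixed length per gene (26285 genes, relative tolerance 1e-09). Per the labels' protocols, libraries were poly(A)-selected, strand-marked and read as pairs. The protocol text speaks of cell lines, while the tissue label is spinal cord. The submitters' processing notes name mm10. Aligner, counter and annotation are not given in the sources used here. Columns were joined to groups by their letters.

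The members and gene lists were chosen with earlier results of these data known. Counts were tested with edgeR 4.0.16 (R 4.3.3): filterByExpr, TMM factors of 0.984 to 1.02, and robust quasi-likelihood F tests on all 9 libraries in 1 fit with 6 residual degrees of freedom. P-values were adjusted by Benjamini-Hochberg over 18245 genes and called under 0.05. The code was tested on simulated data. Alternatives were DESeq2 1.42.0, limma 3.58.1 (voom, and log2 FPKM with a pseudocount of 0.1 or 1), other scalings and filters, a replicate block, fits of 2 groups, and leaving out each library. Genes named were the 9 members, the 2 genes of each list with the smallest joint p, genes fixed by name, and the 5 genes closest in pattern to Chat, Prph, Calca and Mmp9. Some genes under this rule are not reported here. Positions come from GENCODE M21 (GRCm38) and promoters from RefSeq (GRCm38.p6).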

Additional observations from a re-analysis of the deposited data

How the results depend on the processing

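The number of members called stayed at 0 in each of the 3 comparisons and in the joint test under all alternatives run, the replicate block among them. Of 486 alternative fold changes of the members 464 kept their sign and 22 turned, all of them for values that passed no threshold. Outside the leave-one-out fits these were Slc5a7 in SNI against sham, at 0.00158 with limma-voom and 0.00150 with the replicate block, and Isl1 in SNI+LDN193189 against SNI, at 0.00317 with the block and 0.00137 with limma on log2(FPKM + 0.1).

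Leaving out each library in turn gave these ranges of log2 fold change where the sign turned. In SNI+LDN193189 against SNI they were -0.075 to 0.16 for Prph, -0.025 to 0.22 for Calca, -0.15 to 0.12 for Isl1 and -0.22 to 0.014 for Mmp9. In SNI+LDN193189 against sham they were -0.12 to 0.21 for Prph, -0.24 to 0.025 for Calcb and -0.069 to 0.26 for Mnx1. For Ache in SNI+LDN193189 against sham the range was 0.077 to 0.21, with no change of sign. In SNI against sham the ranges with a turned sign were -0.039 to 0.060 for Slc5a7, -0.16 to 0.17 for Prph, -0.0045 to 0.13 for Ache and -0.44 to 0.028 for Mmp9.

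Genes called over the whole table moved more. SNI+LDN193189 against SNI gave 1 gene with edgeR, 5 with DESeq2, 2 with no filter, 3 with 2 groups only, and 0 with the replicate block and with limma on log2(FPKM + 0.1) or log2(FPKM + 1). SNI+LDN193189 against sham gave 3 genes with edgeR, 72 with DESeq2, 30 with no filter, 1 with limma-voom and with either FPKM fit, and 4 with the block. SNI against sham gave 0 with edgeR and with the block, and 24 with DESeq2. Leaving out a library gave 0 to 2, 1 to 17 and 0 to 38 genes in these 3 comparisons, the 38 without sham replicate 1. The causes were not tested. Deviations of same-numbered libraries correlated at -0.158 to 0.198, so the numbers were not taken as pairs. Isl1 and Mnx1 had the fewest counts of the members, 42 to 120 a library.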
